A study of Mus musculus with 12 samples.

Results

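The BCL2 family decides whether a stressed cell opens the outer membrane of its mitochondria, and 10 of its genes were followed in O4-positive mouse glia with and without a deletion of Chd7. The 10 were taken by gene symbol as known members of the family, with earlier results of these data known: the pore-formers Bax and Bak1, the BH3-only genes Bbc3 (PUMA), Pmaip1 (NOXA), Bcl2l11 (BIM), Bid and Bad, and the guardians Bcl2, Bcl2l1 (BCL-X) and Mcl1. All 10 were among the 14107 genes of the count table, and each was measured in all 12 libraries. Control libraries (7) came from tamoxifen-treated Chd7flox/flox pups, and Chd7iKO libraries (5) from littermates of genotype PDGFRaCre; Chd7flox/flox given the same injections. Tamoxifen at 20 mg/ml was injected under the skin at postnatal day 1 (40 µl) and postnatal day 4 (30 µl), and cortex and corpus callosum were taken at postnatal day 7. Cells were then sorted magnetically with an antibody to O4, a lipid antigen on the surface of committed oligodendrocyte precursors and young oligodendrocytes. The Cre recombines floxed Chd7 wherever the Pdgfra promoter is active, which includes precursors and some perivascular cells, and no group had Cre without floxed Chd7, so that Cre and deletion cannot be told apart. How many pups went into a library the sources used here do not say; p-values therefore measure the spread between these libraries, which may in part be technical.

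Family proteins share short BCL2 homology (BH) segments. BAX and BAK form the pore that lets cytochrome c out; the guardians BCL2, BCL-XL and MCL1 hold them in check; BH3-only proteins answer damage or loss of growth factors by occupying the guardians or by activating the pore-formers directly. In the oligodendrocyte lineage many newly made cells die during normal development, and survival factors act in part through this family. Several family genes, Bax, Bbc3 and Pmaip1 among them, are well-known targets of the transcription factor p53.

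The libraries held 30384507 to 35512310 estimated counts. Levels are given as CPM (counts relative to the TMM-scaled total of a library), as mean ± SD over libraries. Chd7 itself had 236 ± 30.9 CPM in Control (n = 7) and 242 ± 28.9 CPM in Chd7iKO (n = 5), between 179 and 281 CPM in single libraries; the sources used here do not name the floxed exons, and whole-gene counts do not check the deletion. Summed over 12 lineage markers such as Sox10, Pdgfra and Mbp, the libraries held 15907 to 19770 CPM in Control and 12950 to 15228 CPM in Chd7iKO. By the rule for calls given below, 6 of the 12 fell, against 13.8% of all genes. Mbp was not among the 6 (log2 fold change -0.058). Markers of cells outside the lineage were present as well, as given beside the results. In such bulk samples, fewer cells of a type and less RNA per cell cannot be told apart.

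Of the 10 genes, 6 rose in Chd7iKO cells: Bax, Bbc3, Pmaip1, Bcl2l11, Bcl2 and Mcl1. They span the 3 arms of the family, 1 pore-former, 3 BH3-only genes and 2 guardians. Bak1, Bid, Bad and Bcl2l1 did not pass the threshold. Among all genes tested, 15.8% were called higher by the same rule, edgeR's quasi-likelihood test with Benjamini-Hochberg adjustment over the whole table and an adjusted p under 0.05, and 29.5% were called in either direction. The median log2 fold change of the 10 was 0.29, against 0.0014 over all genes. Lower calls, which took in 13.8% of all genes, included 0 of the 10 in edgeR (also 0 by unadjusted p under 0.05, by DESeq2 and by limma voom). In 4 of them, Bax, Bbc3, Pmaip1 and Bcl2l11, every Chd7iKO library lay above every control, as was the case for 6.20% of all genes, and 0 of the 10 lay wholly below the controls, as 6.32% of all genes did. DESeq2 and limma voom each called 6 of the 10 higher, against 17.7% and 24.0% of all genes.

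**Figure D1:**
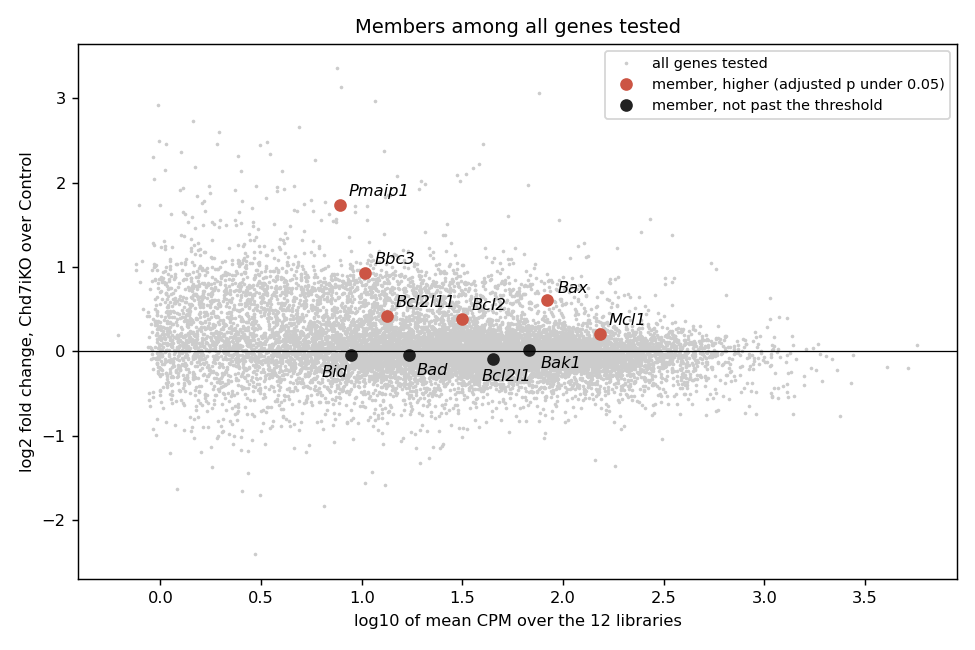
Each grey point is 1 of the 14107 genes, with the log10 of its mean CPM over the 12 libraries on the horizontal axis and its log2 fold change (Chd7iKO over Control, edgeR) on the vertical axis; red points are the members called higher and black points the members that did not pass. Pmaip1 stands highest of the members at 1.74, and Mcl1, the called member with the smallest change, at 0.20.

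Of the pore-formers, Bax rose and Bak1 did not pass. Bax had 61.3, 62.8, 81.6, 65.3, 62.7, 79.4 and 66.4 CPM in Controls 1 to 7, and 102, 105, 109, 96.8 and 107 CPM in Chd7iKO 1 to 5. The groups did not overlap, and Controls 3 and 6 were the highest controls. Bax thus rose by 0.60 on the log2 scale (SE 0.076, edgeR adjusted p = 1.30e-04), which is 1.52-fold with a 95% interval of 1.36 to 1.70. Bak1, whose protein can stand in for BAX, had 70.1, 68.2, 68.2, 68.5, 61.3, 68.4 and 69.1 CPM in the controls and 63.3, 68.1, 71.9, 73.8 and 65.8 CPM in Chd7iKO. Chd7iKO 3 and 4 lay above all controls and the other 3 Chd7iKO libraries within the control range, and the log2 change was 0.019 (SE 0.050, with a 95% interval of -0.089 to 0.13 and an edgeR adjusted p of 0.819), an interval that lies below that of Bax.

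Since Bax rose and its partner did not pass, the 250 bases before the RefSeq start of each gene are shown first (RefSeq, GRCm38.p6), each in the direction of transcription. Capitals mark matches, with at most 1 mismatch, to the p53 decamer, the 10-base unit of which a p53 response element holds a pair; the decamer reads the same on both strands.
Bax (chr7:45466899-45467148, minus strand): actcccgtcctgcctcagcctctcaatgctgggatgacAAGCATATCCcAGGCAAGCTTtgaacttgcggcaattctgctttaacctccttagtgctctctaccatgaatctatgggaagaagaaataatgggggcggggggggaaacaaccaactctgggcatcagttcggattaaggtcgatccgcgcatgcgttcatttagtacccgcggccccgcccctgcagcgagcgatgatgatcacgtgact
Bak1 (chr17:27028628-27028877, minus strand): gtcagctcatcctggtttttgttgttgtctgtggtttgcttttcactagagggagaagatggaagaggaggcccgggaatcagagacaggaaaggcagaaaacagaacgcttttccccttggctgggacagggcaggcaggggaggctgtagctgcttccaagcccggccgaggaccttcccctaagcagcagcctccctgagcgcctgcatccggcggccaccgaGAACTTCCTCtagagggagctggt
The Bax window held an exact decamer 201 to 192 bases before the start, and a second, with 1 mismatch, at 212 to 203 bases, so that a single base separates them. The Bak1 window held 1 match, with 1 mismatch, 24 to 15 bases before the start. Of 32851 such windows of mouse genes, 7.13% held an exact decamer and 63.8% held one with at most 1 mismatch, so that the second class is common everywhere. A match is a description of these letters, not a bound site.

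The BH3-only genes divided into 3 that rose and 2 that did not pass. Pmaip1, which encodes NOXA, a binder of MCL1, showed the largest change of the 10. It had 2.76, 2.33, 5.81, 2.32, 2.34, 8.01 and 3.91 CPM in Controls 1 to 7, and 14.3, 11.6, 10.6, 15.4 and 13.7 CPM in Chd7iKO 1 to 5. Controls 3 and 6 again lay above the other 5 controls, yet below every Chd7iKO library. The rise was 1.74 on the log2 scale (SE 0.30, edgeR adjusted p = 9.49e-04), or 3.34-fold with a 95% interval of 2.15 to 5.18. Without Controls 3 and 6, whose place apart was known from earlier results of these data, it was 2.27 (SE 0.17, edgeR adjusted p = 4.25e-06). These were the highest controls of Pmaip1, so that leaving them out had to raise the change and adds no evidence for it.

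Bbc3 encodes PUMA, which binds all of the guardians. Its values were 7.04, 7.16, 11.3, 7.58, 6.58, 7.09 and 6.09 CPM in the controls and 16.3, 12.9, 16.1, 12.4 and 14.2 CPM in Chd7iKO. Control 3 alone stood above the other controls, and the groups did not overlap. The change was 0.93 on the log2 scale (SE 0.14, edgeR adjusted p = 3.80e-04), a 1.91-fold rise with a 95% interval of 1.55 to 2.34.

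Bcl2l11 encodes BIM, a BH3-only protein that responds to loss of growth factor signals. Its values were 13.4, 12.9, 11.7, 9.87, 10.8, 11.4 and 11.9 CPM in the controls and 17.1, 14.6, 15.0, 14.8 and 16.7 CPM in Chd7iKO, again without overlap. Here Controls 3 and 6 lay inside the range of the other controls. The log2 fold change of 0.42 (SE 0.084, edgeR adjusted p = 0.00278) amounts to 1.34-fold.

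Bbc3 and Bcl2l11 have more than 1 RefSeq start (3 and 2), and the windows before the most upstream start of each are printed in the same way, for comparison with Bax.
Bbc3 (chr7:16309333-16309582, plus strand): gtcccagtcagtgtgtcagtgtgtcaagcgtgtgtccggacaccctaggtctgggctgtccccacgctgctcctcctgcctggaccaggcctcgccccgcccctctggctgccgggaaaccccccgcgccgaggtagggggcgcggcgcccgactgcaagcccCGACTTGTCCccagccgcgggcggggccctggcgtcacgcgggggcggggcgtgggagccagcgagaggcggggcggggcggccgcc
Bcl2l11 (chr2:128125788-128126037, plus strand): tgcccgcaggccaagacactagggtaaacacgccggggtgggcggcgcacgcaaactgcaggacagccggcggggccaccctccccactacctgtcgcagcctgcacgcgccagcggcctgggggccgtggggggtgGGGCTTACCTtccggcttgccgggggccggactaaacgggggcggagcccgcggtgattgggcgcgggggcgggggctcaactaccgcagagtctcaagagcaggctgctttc
Neither window held an exact decamer; each held 1 match with 1 mismatch, at 87 to 78 bases before the start in Bbc3 and at 113 to 104 bases in Bcl2l11. Both are rich in G and C (76.4% and 72.0%, against 54.0% in Bax and 58.4% in Bak1). The letters GGGCGG, counted on either strand with overlaps, occurred 5 times in the Bbc3 window and 3 times in that of Bcl2l11, and 32.7% of all windows held them at least once. Over all starts, windows were found for 9 of the 10 genes, Pmaip1 being the other. The Bax window was the only one of these 15 with an exact decamer, which is near the share of 7.13% over all windows. The window of start 2 of Bbc3 held 3 matches with 1 mismatch, and those of start 3 of Bbc3 and start 2 of Bcl2l11 held 0. No match in these windows says nothing about sites elsewhere in a gene. Stretches with more than 1 mismatch were not marked, so that a pair with 1 weaker decamer would appear here as a lone match.

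Bid, which is cut by caspase-8 to link death receptors to mitochondria, had a lowest, median and highest value of 7.49, 9.13 and 9.95 CPM in Control and of 8.35, 8.48 and 9.64 CPM in Chd7iKO (log2 fold change -0.043, 95% interval -0.23 to 0.14, edgeR adjusted p = 0.753). Bad, which growth factor signals silence by phosphorylation, ranged from 14.9 to 19.2 CPM around a median of 18.1 CPM in Control, and from 15.0 to 18.1 CPM around 17.3 CPM in Chd7iKO (log2 fold change -0.043, 95% interval -0.22 to 0.13, edgeR adjusted p = 0.735). Every Chd7iKO value of both genes lay within the control range. Both intervals end below those of Bax, Bbc3, Pmaip1 and Bcl2l11.

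Among the guardians, Bcl2 and Mcl1 rose, and Bcl2l1 did not pass. Bcl2 had 32.8, 26.4, 31.3, 25.6, 26.6, 28.7 and 24.4 CPM in Controls 1 to 7 and 41.0, 35.4, 32.3, 35.4 and 38.4 CPM in Chd7iKO 1 to 5. Chd7iKO 3 lay below Control 1, and the other 4 Chd7iKO libraries above all controls. The groups differed by 0.38 on the log2 scale (SE 0.083, edgeR adjusted p = 0.00422), a 1.30-fold difference. Mcl1, a short-lived guardian, had 148, 136, 161, 139, 134, 150 and 135 CPM in Control and 174, 160, 157, 162 and 170 CPM in Chd7iKO. Control 3 lay above Chd7iKO 2 and 3, so that 3 of 5 Chd7iKO libraries exceeded all controls. This was the smallest called change, 0.20 on the log2 scale (SE 0.052, edgeR adjusted p = 0.0117), or 1.15-fold with a 95% interval of 1.06 to 1.24, and without Chd7iKO 4 and 5 it did not pass (0.19, edgeR adjusted p = 0.0799).

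Bcl2l1 had a wide spread within both groups. It had 67.4, 41.0, 53.5, 43.9, 42.3, 39.5 and 34.1 CPM in the controls and 57.8, 38.3, 35.2, 41.8 and 42.5 CPM in Chd7iKO. Control 1 and Chd7iKO 1 were the highest library of their groups, and all Chd7iKO values lay within the control range. The log2 fold change was -0.091 with a wide 95% interval, -0.43 to 0.25 (edgeR adjusted p = 0.717), so that changes within it, in either direction, were not detectable here. Immediate early genes, which respond within minutes to handling of cells, were highest in the same libraries. Summed over 9 genes, they stood at 2126 CPM in Control 1 and 2422 CPM in Chd7iKO 1. Astrocyte markers, summed over 8 genes, were also highest in these libraries, at 6333 CPM and 4688 CPM. What part either set has in Bcl2l1 was not tested. Bcl2l1 and Mcl1 both give rise by splicing to long forms that protect and short forms that promote death, and counts per gene do not separate these.

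**Figure D2:**
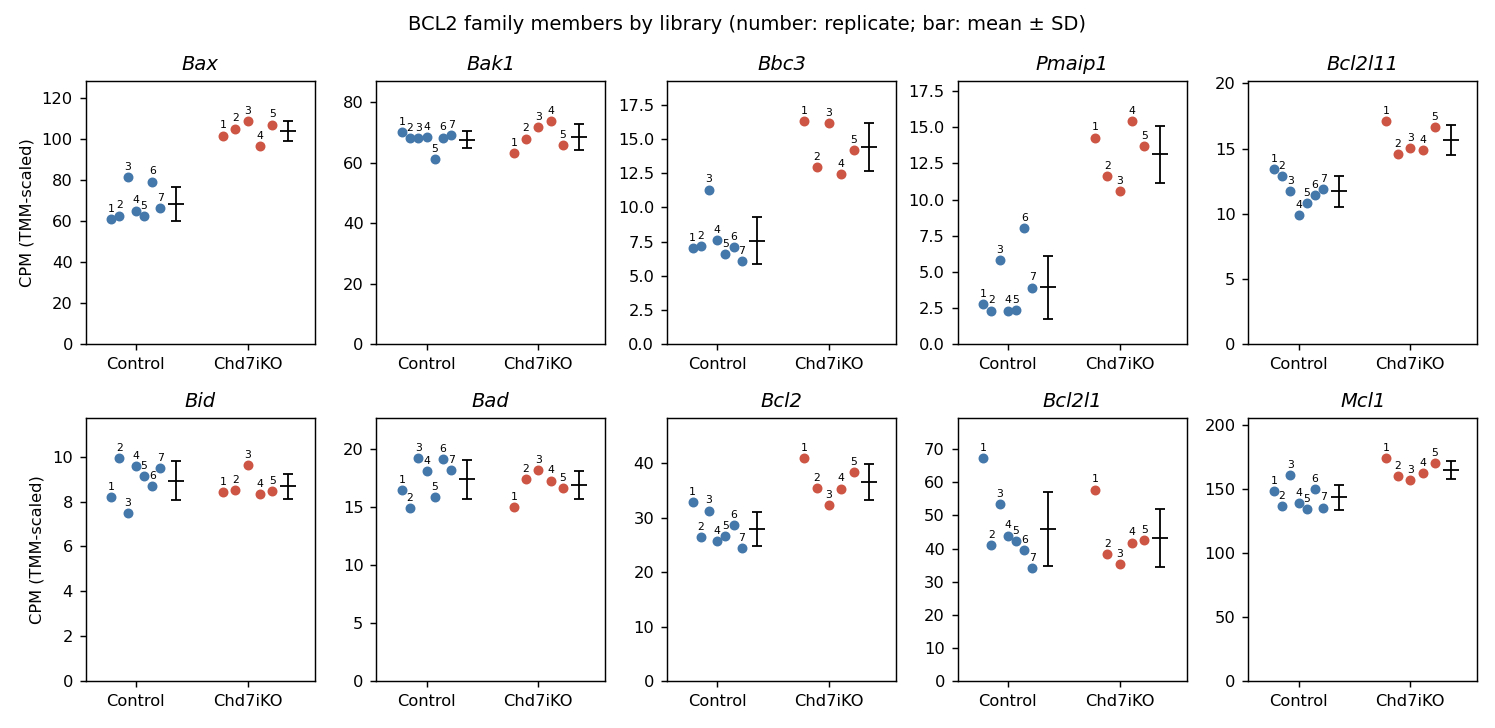
CPM (vertical axis, from 0) of the 10 genes in each library, with 1 point per library, its replicate number above it, and the group mean ± SD at the right of the points; blue is Control (n = 7) and red Chd7iKO (n = 5). The groups are apart in Bax, Bbc3, Pmaip1 and Bcl2l11 and overlap in the other 6 genes; Control 3 is high in Bax, Bbc3 and Pmaip1, and Control 6 in Bax and Pmaip1.

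Levels can be compared between genes only per length, here as CPM per kilobase of exon in GENCODE M21 (GRCm38), since the sources used here name no annotation behind the counts. In Control, Bax (43.5 ± 5.34 CPM per kilobase) and Mcl1 (41.9 ± 2.88) led and lay within each other's spread, followed by Bak1 (28.1 ± 1.20), Bcl2l1 (10.02 ± 2.42) and Bad (6.80 ± 0.657). The other 5 genes were lower, from Bbc3 (3.55 ± 0.808) through Bcl2 (3.05 ± 0.338) and Bid (2.52 ± 0.243) to Bcl2l11 (1.46 ± 0.149) and Pmaip1 (1.44 ± 0.808); the mean ± SD of Bbc3 overlapped that of Bcl2, that of Bcl2 that of Bid, and that of Bcl2l11 that of Pmaip1. In Chd7iKO, Bax stood at 66.0 ± 3.06 CPM per kilobase, clear of Mcl1 at 48.2 ± 2.15 and Bak1 at 28.5 ± 1.79, with Bcl2l1 next at 9.40 ± 1.90. Bbc3 (6.78 ± 0.835) was then level with Bad (6.60 ± 0.463), and Pmaip1 (4.81 ± 0.722) overlapped Bcl2 (3.99 ± 0.360) and stood above Bid (2.44 ± 0.152) and Bcl2l11 (1.95 ± 0.143).

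Positions are those of GENCODE M21 on the same assembly as mm10, the build in the submitters' processing notes. Bax lies on chromosome 7 from 45461697 to 45466898 (minus strand), Bbc3 on chromosome 7 from 16308393 to 16318205 (plus), Pmaip1 on chromosome 18 from 66458533 to 66465565 (plus) and Bcl2l11 on chromosome 2 from 128126038 to 128162547 (plus). Bcl2 spans 106538178 to 106714274 of chromosome 1 (minus) and Mcl1 95658788 to 95663176 of chromosome 3 (plus). Exons of Bid, Bad and Bak1 overlap those of Bcl2l13, Gpr137 and Ggnbp1 on the opposite strand by 628, 524 and up to 437 bases. The kit keeps the strand, but the sources used here do not say whether the counting used it, so that these 3 genes carry that uncertainty; of the genes that rose, Bax shares 192 exon bases with a predicted gene, Gm45808, and Bcl2 shares 558 with the antisense gene D630008O14Rik, neither of which has a row in the count table.

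How Bax and Bbc3 stood to the guardians was read from ratios of counts within a library, which no scaling between libraries changes. The ratios are described here without a test. Bax and Bbc3 are the members with the smallest adjusted p and both rose, so that higher ratios in part repeat those rises. Ratios of Bak1, Pmaip1, Bcl2l11, Bid and Bad to the guardians were not formed. Bax to Mcl1 was 0.413, 0.460, 0.508, 0.470, 0.468, 0.531 and 0.490 in Controls 1 to 7 and 0.585, 0.658, 0.696, 0.596 and 0.630 in Chd7iKO 1 to 5. Thus all 5 Chd7iKO libraries lay above all controls, and the ratio of geometric means was 1.33. Bbc3 to Mcl1 ran from 0.0450 to 0.0702 in Control and from 0.0766 to 0.103 in Chd7iKO, 1.68 times as high, and Bbc3 to Bcl2l1 from 0.105 to 0.211 and from 0.282 to 0.458, 2.04 times as high. Neither of these overlapped.

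The other ratios overlapped between groups. Bax to Bcl2, a widely quoted index, went from 1.87 to 2.77 in Control and from 2.48 to 3.37 in Chd7iKO, with 3 of 5 Chd7iKO libraries above all controls and a ratio of geometric means of 1.17. Bax to Bcl2l1 ran from 0.909 to 2.01 and from 1.76 to 3.09 (4 of 5 above), and Bbc3 to Bcl2 from 0.215 to 0.360 and from 0.352 to 0.499 (4 of 5 above). So the Bax to Bcl2 ratio moved least of the 6; Bcl2 itself rose too. These are ratios of transcripts and not of proteins.

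**Figure D3:**
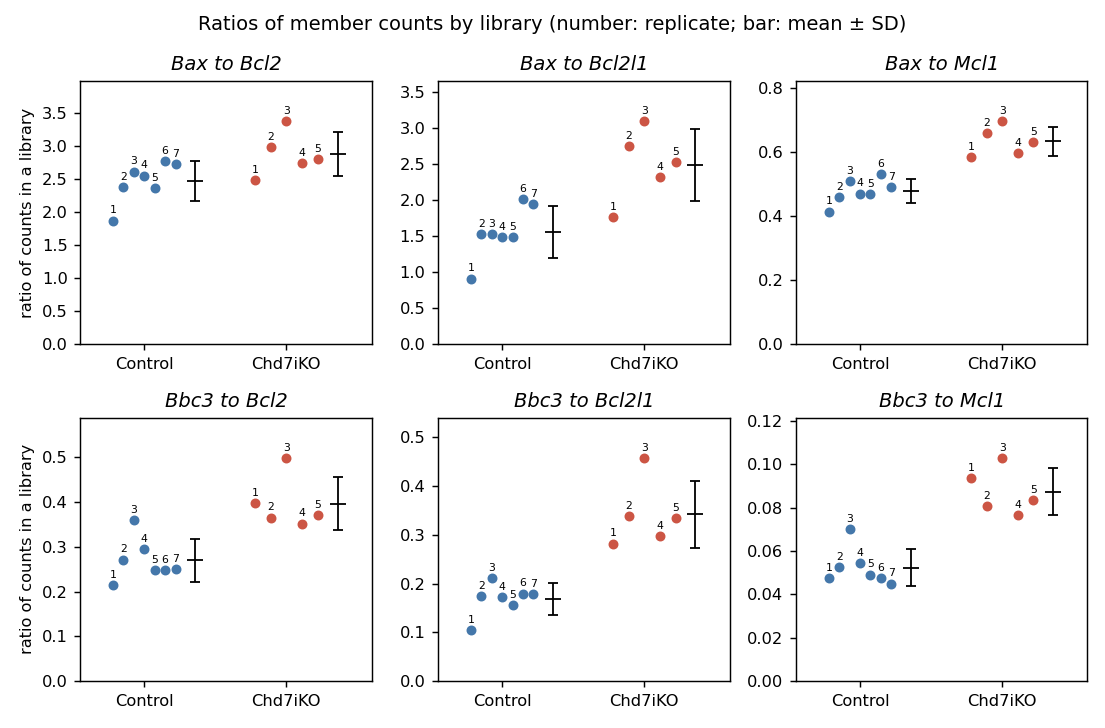
Ratio of the counts of 2 members in each library (vertical axis, from 0, no unit), with 1 point per library, its replicate number above it and the group mean ± SD at the right; blue is Control (n = 7) and red Chd7iKO (n = 5). Bax to Mcl1, Bbc3 to Bcl2l1 and Bbc3 to Mcl1 are apart between the groups, and Bax to Bcl2 overlaps, at 2.48 in Chd7iKO 1 against 2.77 in Control 6.

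Markers of other cells moved with these results. Of 14 microglial markers, 11 rose, with summed levels of 313 to 701 CPM in Control and 615 to 801 CPM in Chd7iKO; 7 of 9 endothelial markers rose (258 to 532 and 402 to 815 CPM), as did 7 of 9 mural and fibroblast markers (125 to 367 and 310 to 823 CPM) and 6 of 9 immediate early genes (936 to 2126 and 1725 to 2422 CPM). In edgeR, 0 genes of these 4 lists fell (also 0 by unadjusted p under 0.05 in edgeR, DESeq2 or limma voom), and each marker measured had counts in every library. Of 8 astrocyte and 9 neuronal markers, 1 and 3 fell. Among all genes tested, 15.8% were called higher and 13.8% lower, so that 1 of 8 is near the share over all genes. Controls 6 and 7 had microglial sums of 701 and 637 CPM, within the Chd7iKO range, with Bax at 79.4 and 66.4 CPM and Pmaip1 at 8.01 and 3.91 CPM; Bax and Pmaip1 are among the genes whose groups do not overlap, so that these controls had to lie below the Chd7iKO libraries. Immediate early genes were within the Chd7iKO range in Control 1 (2126 CPM) and Control 3 (1854 CPM), which had the lowest and the highest control level of Bax (61.3 and 81.6 CPM). What part these markers have in the members' levels was not tested beyond the fits with covariates that follow.

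With the mean of the microglial, endothelial, mural, astrocyte and neuronal markers as a covariate, 3 of the 10 were called, Bax (log2 fold change 0.61, edgeR adjusted p = 0.00369), Bbc3 (1.17, adjusted p = 0.00120) and Pmaip1 (1.40, adjusted p = 0.0264), against 4.56% of all genes called higher in that fit. With the microglial mean alone, 2 were called, Bax (0.48, edgeR adjusted p = 0.0171) and Bbc3 (1.02, adjusted p = 0.0152), against 2.70% of all genes, and Pmaip1 fell short at 1.01 (adjusted p = 0.0585). Bcl2, Bcl2l11 and Mcl1 kept their direction but passed in neither fit, at log2 fold changes of 0.35, 0.37 and 0.19 in the first and of 0.37, 0.38 and 0.16 in the second. Without Chd7iKO 4 and 5, which had the highest vascular markers, 5 were called, against 6.44% of all genes, and Mcl1 was the one lost.

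**Figure D4:**
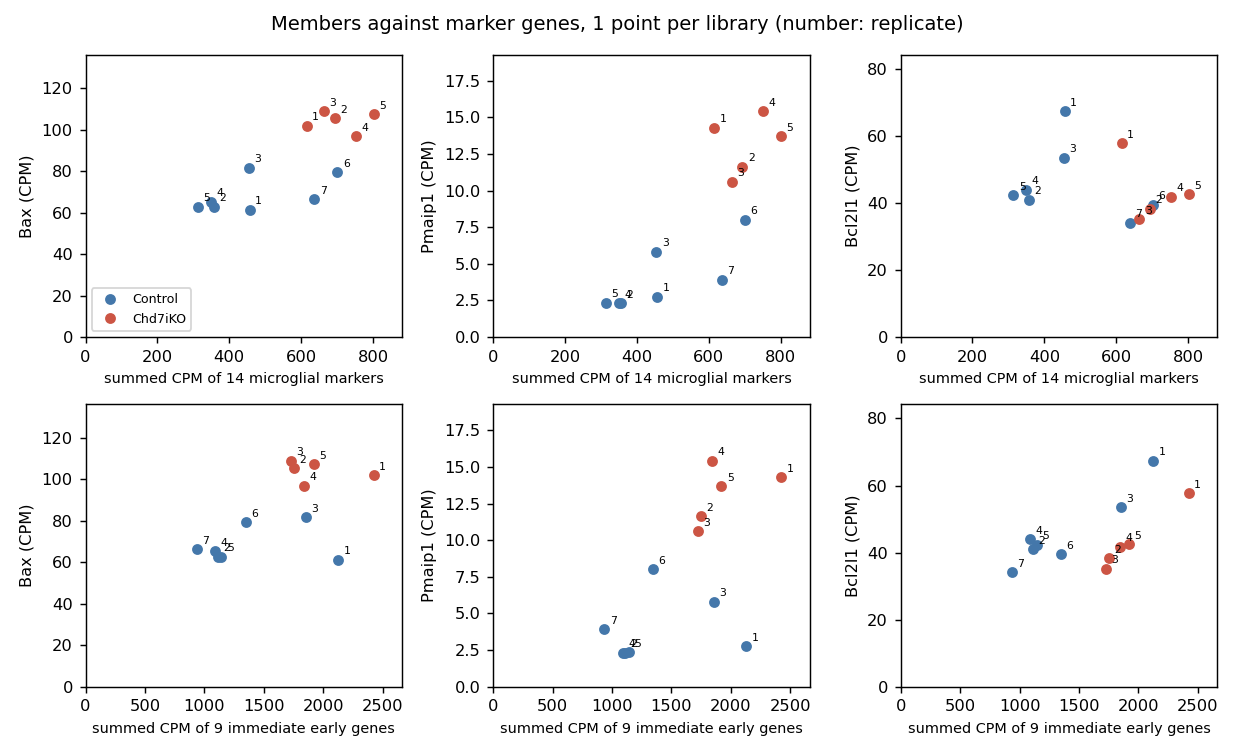
CPM of Bax, Pmaip1 and Bcl2l1 (vertical axes, from 0) against the summed CPM of 14 microglial markers (upper row) and of 9 immediate early genes (lower row), with 1 point per library and its replicate number; blue is Control (n = 7) and red Chd7iKO (n = 5). Controls 6 and 7 lie at 701 and 637 CPM of microglial markers, within the Chd7iKO range. Control 1 and Chd7iKO 1 are the highest of their groups in both Bcl2l1 and immediate early genes. They are also highest in astrocyte markers, which are not plotted.

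Of 16 other genes of the family, 10 were in the table, and of these 2 rose and 2 fell (median log2 fold change 1.48e-04). These counts are near the shares over all genes, 15.8% called higher and 13.8% called lower. The mitophagy receptors Bnip3 and Bnip3l, which carry BH3-like segments and guide mitochondria to autophagosomes, fell from 29.7 ± 1.81 to 24.7 ± 2.66 CPM (log2 fold change -0.26, edgeR adjusted p = 0.0173) and from 151 ± 12.5 to 128 ± 4.79 CPM (-0.24, adjusted p = 0.00833). Bnip3 missed the threshold at log2 fold changes of about the same size without Chd7iKO 5 (-0.25, edgeR adjusted p = 0.0519), with the replicate block (-0.26, adjusted p = 0.0523) and with the microglial covariate (-0.31). Bnip3l missed it with the covariate of other cell types (-0.17, edgeR adjusted p = 0.183) and with the microglial one (-0.20, adjusted p = 0.182). Bcl2a1b, a guardian best known from blood cells, rose from 2.34 ± 0.775 to 3.74 ± 0.194 CPM (0.68, edgeR adjusted p = 0.0202), and with the microglial covariate its log2 fold change was 0.15 (adjusted p = 0.647); it did not pass with the covariate of other cell types (0.44, adjusted p = 0.273) or without Chd7iKO 4 and 5 (0.67, adjusted p = 0.0996) either. It is 1 of several near-identical gene copies, so that its counts are uncertain. Bcl2l12 rose from 1.83 ± 0.351 to 2.77 ± 0.430 CPM (0.60, edgeR adjusted p = 0.0131), and missed the threshold with the replicate block (0.58, adjusted p = 0.0553), without Chd7iKO 4 and 5 (0.56, adjusted p = 0.0774) and with the covariates (0.47 and 0.53, adjusted p = 0.178 and 0.210). The other 6 did not pass: the pore-former Bok (0.17), the guardian Bcl2l2 (-0.064), Bcl2l13 (-0.035), the BH3-only genes Bmf (-0.060) and Hrk (0.21), and the autophagy gene Becn1 (0.035), in log2 fold changes. Bok passed in limma voom (0.23, adjusted p = 0.0158) and without Chd7iKO 1 (0.25, edgeR adjusted p = 0.0399).

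**Figure D5:**
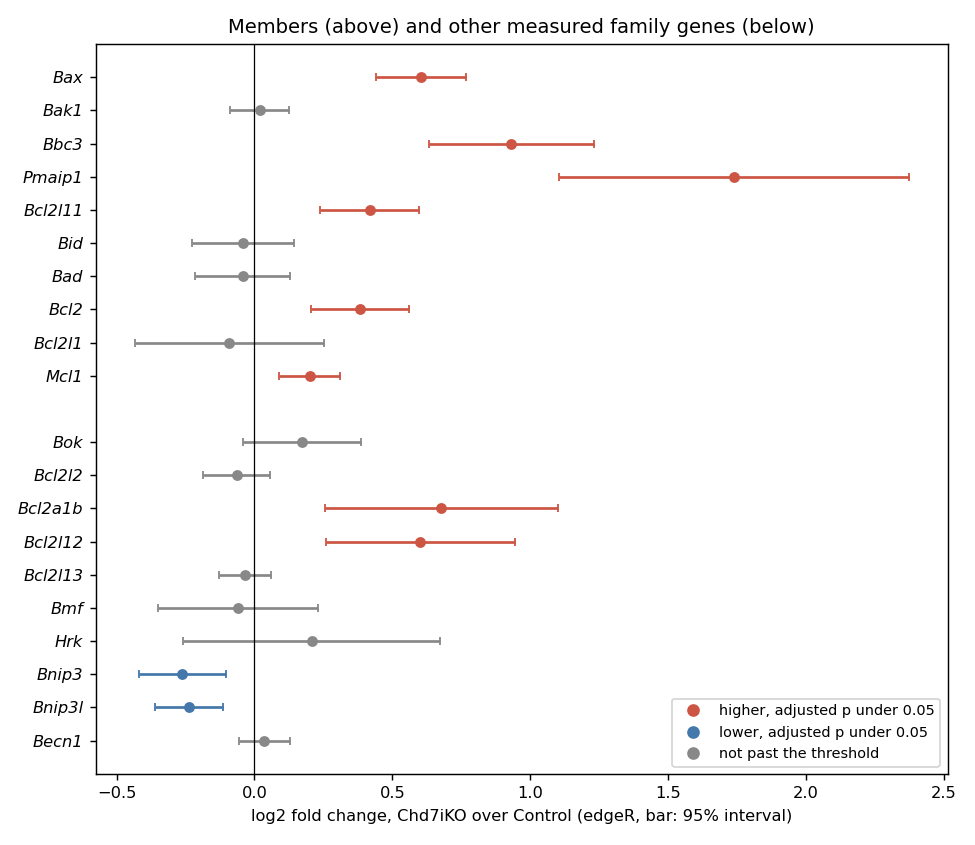
Log2 fold changes (Chd7iKO over Control, horizontal axis) with 95% intervals from edgeR, for the 10 members in the upper block and the 10 other measured family genes in the lower block; red is called higher, blue called lower and grey not past the threshold. In the upper block 6 genes are red, from Mcl1 at 0.20 to Pmaip1 at 1.74, and in the lower block Bnip3 and Bnip3l are blue.

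Downstream of the pore, 3 of 16 genes rose and 0 fell in edgeR (also 0 by unadjusted p under 0.05 and by DESeq2, and 1 by limma voom), and their median log2 change was 0.0034. Among all genes tested, 15.8% were called higher and 13.8% lower in edgeR, so that 3 of 16 is near the share over all genes. Apaf1, the scaffold that cytochrome c assembles into the apoptosome, rose from 35.4 ± 6.40 to 60.8 ± 5.37 CPM, and Birc3, an inhibitor of cell death, from 2.76 ± 0.774 to 5.38 ± 0.627 CPM. Casp9, the protease that the apoptosome activates, did not pass (log2 fold change -0.034). With either marker covariate, 2 of the 16 were called higher, against 4.56% of all genes with that of other cell types and 2.70% with the microglial one. Among 14 transcription factors known to act on family genes, 5 rose and 1 fell. The count of higher calls was 3 with the covariate of other cell types, 1 with the microglial covariate and 2 without Chd7iKO 4 and 5. It was 3 with the replicate block and 9 in limma voom, and each of these fits called 1 lower. In the same order, 4.56%, 2.70%, 6.44%, 17.5% and 24.0% of all genes were called higher in these fits. Trp53, the gene of p53, rose by 0.48, E2f1, which drives entry into S phase, by 1.08, and Ddit3 (CHOP), a stress factor that can induce Bcl2l11, by 0.32 (SE 0.10, edgeR adjusted p = 0.0336), all on the log2 scale, while Hif1a, the oxygen-responsive factor that induces Bnip3, fell from 336 ± 12.9 to 262 ± 12.9 CPM. Foxo3 (0.077), which can induce Bcl2l11 and Bbc3, did not pass.

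Of 12 regulators that act on family proteins, 11 were measured, 2 rose and 1 fell. Among all genes tested, 15.8% were called higher and 13.8% lower, so that the counts of this list and of the mitochondrial partners below are near those shares. Casp8, the protease that cuts BID, rose from 5.38 ± 1.84 to 9.64 ± 1.27 CPM and the co-chaperone Bag3 from 8.41 ± 2.42 to 13.4 ± 2.84 CPM, while the kinase gene Mapk9 fell from 112 ± 8.21 to 95.3 ± 3.81 CPM. None of these 3 passed without Chd7iKO 4 and 5 or with either marker covariate, where the list gave 0 calls in each direction (edgeR; 3, 3 and 0 genes at an unadjusted p under 0.05). Of 11 mitochondrial partners, 1 rose and 2 fell; 0 rose and 1 fell with the covariate of other cell types, 0 rose and 2 fell without Chd7iKO 4 and 5, and 0 were called in either direction with the microglial covariate (edgeR; 0 higher and 3 lower by unadjusted p under 0.05). In the fit without covariates, Mff, which recruits the fission machinery, fell from 169 ± 7.37 to 143 ± 4.95 CPM, Mtch2, the receptor of cleaved BID, from 135 ± 5.08 to 118 ± 6.66 CPM, and the carrier Slc25a5 rose from 361 ± 26.3 to 422 ± 26.6 CPM. The channels Vdac1, Vdac2 and Vdac3, of which VDAC2 binds BAK, did not pass (-0.046, 0.021 and 0.015 on the log2 scale).

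The authors' deposited lists of genes bound by Chd7 in oligodendrocyte precursors hold 4 of the 10 members, Bax, Bcl2, Bcl2l1 and Mcl1, and 39.4% of all genes tested. All 4 are also on the deposited list of genes bound by both Chd7 and Chd8 in precursors, a related remodeller, which takes in 34.8% of the genes tested. Bak1 and Bad are on the list of Chd8 alone, which takes in 32.0% of the genes tested. Bcl2l11 is on that of genes bound by Chd7 in oligodendrocytes only, which takes in 7.80%. Bbc3 and Pmaip1, the members with the largest changes, are on none of these lists, nor is Bid. Of the bound members, Bax and Bcl2 are on the deposited list of bound genes that rose in these same libraries, which is no independent evidence of their direction. Mcl1 is not on it, although the authors' deposited table gives it a log2 fold change of 0.20 and an adjusted p of 0.0167. Among the listed genes, the lowest log2 fold change in that table is 0.27 and the highest adjusted p is 0.140. Of 664 bound genes with an adjusted p under 0.05 and a positive change in that table, 560 are on the list. An adjusted p under 0.05 stands in the authors' deposited table for 6 of the 10, the same 6 as here, and for 3719 of all 14107 genes in either direction.

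For Bax and Bbc3, the members with the smallest adjusted p, the genes whose log2 CPM followed them most closely over the 12 libraries were sought. Members and genes with names of predicted genes, pseudogenes or clones were left out of the search. Hectd2, Psrc1 and Hmga2 were nearest to Bax, with Pearson correlations of 0.991, 0.990 and 0.988. Nearest to Bbc3 were Camk2b, Lypla2 and Rbm38, at 0.981, 0.979 and 0.976. These values describe 12 libraries that fall into 2 groups, and all 6 genes were called higher in Chd7iKO, so that the group difference is part of each correlation. Psrc1 rose from 13.6 ± 6.63 to 55.0 ± 3.59 CPM and Camk2b from 50.8 ± 7.02 to 101 ± 8.22 CPM.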

How the data were processed

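RNA was sequenced from O4-positive cells in 7 Control and 5 Chd7iKO libraries. The authors deposited unscaled estimated counts, of which 1.76% were not whole (none in the 10 members), and the log2 fold change and p-value of each gene from their comparison. They also deposited lists of bound genes, without values or the rule that ties sites to genes. TopHat2, Bowtie, featureCounts, edgeR and mm10 appear in the submitters' processing notes, with no role or version. The sources used here name no annotation, and no gene averaged under 20.8 counts.

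Counts were rounded. The main test was edgeR 4.0.16 (quasi-likelihood, two-sided, TMM, expression filter, which removed 0 genes, no covariate) on all 14107 genes, with p-values adjusted after Benjamini and Hochberg and called under 0.05. The members, the lists and the rule for named genes were chosen with earlier results of these data known. The rule names all members, other measured family genes, up to 4 called genes of each other list by smallest adjusted p, and the 3 genes nearest to each of 2 members; Casp9, Foxo3 and the Vdac genes were added after their values were seen, and some genes counted in the lists are not reported here by name. Correlations used log2 CPM with a prior count of 2. The 31 pairs of libraries within a group all differed by more than sampling noise (lowest chi-square per degree of freedom 9.14). Alternatives were DESeq2 1.42.0, limma 3.58.1, other scalings and filters, marker covariates, the replicate number as a block and left-out libraries. The test was checked on simulated data.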

Additional observations from a re-analysis of the deposited data

Results flagged for a closer look

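In 3 of the 20 sets of values of 1 member in 1 group, a library stood further from its nearest neighbour, relative to the range of the group, than Dixon's 95% critical value, where chance gives about 1 in 20. Control 3 had 11.3 CPM of Bbc3, against at most 7.58 CPM in the other controls. Without it the log2 fold change was 1.06 (edgeR adjusted p = 2.65e-05), and leaving out the highest control had to raise it. Control 5 had 61.3 CPM of Bak1, below the other controls, which began at 68.2 CPM, and without it the log2 fold change was -0.0039 (edgeR adjusted p = 0.965). Chd7iKO 3 had 9.64 CPM of Bid, above the other Chd7iKO libraries, which ended at 8.51 CPM.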

How the results depend on the processing

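Across 25 alternatives, 6 members were called higher in 21, including all 12 that left out 1 library (range 6 to 6), 5 at a threshold of 0.01 and without Chd7iKO 4 and 5, 3 with the covariate of other cell types and 2 with the microglial covariate; 0 were called lower in any, in edgeR, DESeq2 or limma voom. Bax and Bbc3 passed in all 25. Of these, the setting without a filter and that with at least 1 CPM in 5 libraries kept all 14107 genes. Both repeat the main fit, and the threshold of 0.01 was applied to the main fit as well. Mcl1 missed the threshold of 0.01 (0.20 on the log2 scale) and passed neither without Chd7iKO 4 and 5 (0.19) nor with the covariates (0.19 and 0.16). The covariates also ended the calls of Bcl2 (0.35 and 0.37) and Bcl2l11 (0.37 and 0.38), and the microglial one that of Pmaip1 (1.01). Members that did not pass changed sign under some settings: Bak1 with the covariates (-0.018 and -0.038) and between -0.0040 and 0.045 without single libraries; Bid with the covariates (0.0036 and 0.011); Bad in limma voom (0.014) and without Controls 3 and 6 (0.021); Bcl2l1 with the microglial covariate (0.053) and between -0.22 and 0.030 without single libraries. So did Bcl2l2 (0.0015, microglial covariate), Bcl2l13 (0.0084, other cell types), Bmf (0.032, limma voom; -0.11 to 0.031 without single libraries), Hrk (-0.15 and -0.18 with the covariates, -0.083 without Chd7iKO 4 and 5) and Becn1 (-0.0015, replicate block). Over all genes, 4167 calls became 6462 in limma voom, 2056 at 0.01, 1243 and 775 with the covariates, 1747 without Chd7iKO 4 and 5, and 2690 to 4612 without single libraries (2690 without Chd7iKO 5). The cause was not tested.

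The sources used here do not say whether replicate numbers pair the libraries. Same-numbered deviations correlated at over 0.1 in 1 of 5 pairs (0.38 for number 1). Of 5 Chd7iKO libraries, 1 correlated best with the control of its number. So few pairs do not show a pairing and cannot exclude one. With the replicate block, fitted on the 5 shared numbers, 4819 genes and 6 members were called. Bcl2l1 then had a log2 fold change of -0.20 (SE 0.090, against 0.16 in the main fit) and did not pass (edgeR adjusted p = 0.120). Scaling moved the median of all genes by at most 0.033 on the log2 scale. Of the 10 members, Pmaip1 had the library with the fewest counts (75; at most 506).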
